A study of Mus musculus with 8 samples.

Results

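The genes described here are 10 markers of endothelium, the cell layer that lines blood vessels: Pecam1, Cdh5, Kdr, Flt1, Tek, Tie1, Emcn, Vwf, Fabp4 and Egfl7. They were taken from the count table by matching the Ensembl identifiers to these symbols in the mouse gene annotation GENCODE M21, and all 10 were found among the 38293 identifiers of the table. Poly(A) RNA was sequenced from the left ventricles of 8 untreated male mice aged 8 weeks on a C57BL/6 background, with 1 library per heart. The 4 hearts labelled WT (replicates 1 to 4) were compared with 4 hearts labelled as a knockout (KO) of mORF4/NBDY (replicates 5 to 8), the gene Nbdy, whose microprotein product associates with mRNA decapping factors. How the allele was made is not described in the labels, which name no cell type or promoter to which the knockout would be limited.

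Endothelial cells are among the most numerous cells of the heart, where capillaries run beside nearly every muscle fibre. They respond to vascular endothelial growth factor (VEGF) through the receptors encoded by Kdr and Flt1, and to angiopoietins through the receptor Tek, whose relative Tie1 modulates it. Adhesion proteins such as those encoded by Cdh5 and Pecam1 hold neighbouring cells together, and the lipid carrier Fabp4 serves the passage of fatty acids across the capillary wall to the muscle.

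Total counts ran from 11101901 to 14699949 per library, and the 10 marker genes held between 0.283% and 0.362% of the counts of a library. Nbdy itself was lower in every KO library (115 to 137 counts) than in every WT library (208 to 248 counts) and stayed detectable in each, at 9.92 ± 0.412 CPM in KO against 19.4 ± 0.47 CPM in WT (mean ± SD, n = 4, counts scaled to library size; log2 fold change -0.97). The summed level of 10 cardiomyocyte genes, the defining markers of the labelled tissue, lay between 72996 and 88669 CPM. Libraries stood apart within genotypes: mitochondrially encoded transcripts took 29.2% of counts in WT replicate 1, 19.4% to 19.9% in WT replicates 2 to 4 and 23.0% to 26.7% in the KO libraries. WT replicate 1 was nearer to each KO library (chi-square per degree of freedom over the genes tested, 13.4 to 26.6) than to any other WT library (44.1 to 59.4). This distance included the mitochondrially encoded transcripts and was not recomputed without them. Without WT replicate 1, as with it, 0 marker genes passed and their median log2 fold change was -0.05. In addition, the summed level of 12 immediate early genes, switched on within minutes of a stimulus, was 478.9 to 553.6 CPM in WT replicate 1 and KO replicates 5 and 6 and 818.3 to 1779 CPM in the other 5 libraries.

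The start regions of Emcn, Tek, Kdr and Flt1 are shown because these genes lie at the centre of the comparisons between members below. RefSeq start regions (GRCm38.p6) were matched for 6 of the 10 members, Kdr, Flt1, Tek, Tie1, Emcn and Egfl7. Those of Tie1 and Egfl7 are not printed, because 192 of 230 bases for Tie1 and all 230 in each of 3 windows for Egfl7 lie inside the gene as GENCODE M21 annotates it. Each sequence holds 230 bases, from 250 to 21 bases before the RefSeq transcription start and outside the GENCODE M21 gene, on the strand of the gene and written 5′ to 3′. Capitals mark the letters GGAA or, for the other strand, TTCC, the core that transcription factors of the ETS family recognise. The regions are chr3:137340828-137341057 on the plus strand for Emcn, chr4:94739039-94739268 on the plus strand for Tek, chr5:75978476-75978705 on the minus strand for Kdr and chr5:147726032-147726261 on the minus strand for Flt1.
Emcn: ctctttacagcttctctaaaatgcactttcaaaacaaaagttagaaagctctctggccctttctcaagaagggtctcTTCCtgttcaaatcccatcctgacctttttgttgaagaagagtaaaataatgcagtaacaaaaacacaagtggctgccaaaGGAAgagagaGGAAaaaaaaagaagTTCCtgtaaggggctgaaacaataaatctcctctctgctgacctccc
Tek: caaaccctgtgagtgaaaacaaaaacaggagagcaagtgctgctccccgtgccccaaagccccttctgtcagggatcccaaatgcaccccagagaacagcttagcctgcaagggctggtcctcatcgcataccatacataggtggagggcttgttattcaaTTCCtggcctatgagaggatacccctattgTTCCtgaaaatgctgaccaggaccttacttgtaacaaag
Kdr: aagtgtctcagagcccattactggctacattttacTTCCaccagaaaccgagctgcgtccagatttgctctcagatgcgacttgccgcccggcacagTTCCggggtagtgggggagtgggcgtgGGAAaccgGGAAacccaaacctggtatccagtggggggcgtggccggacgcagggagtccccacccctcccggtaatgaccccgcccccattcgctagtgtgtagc
Flt1: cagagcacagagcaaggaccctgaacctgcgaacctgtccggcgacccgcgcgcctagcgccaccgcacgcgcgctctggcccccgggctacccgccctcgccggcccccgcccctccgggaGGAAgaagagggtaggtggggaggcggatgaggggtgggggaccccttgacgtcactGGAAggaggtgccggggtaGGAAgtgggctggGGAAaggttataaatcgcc

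The letters GGAA or TTCC occurred 4 times each for Emcn, Kdr and Flt1, and 2 times for Tek. Such short letters are common: 91.9% of 32851 RefSeq start regions of the same length hold at least 1 copy, with a median of 2. The longer run AGGAAG, searched on both strands as AGGAAG or CTTCCT and always containing the core, occurred 2 times each for Emcn and Flt1, against 27.2% of all start regions with at least 1 copy. No such run was in the Tek or Kdr window. The run TATAAA (or TTTATA) occurred 1 time in the Flt1 window and in 11.8% of all start regions.

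Levels of different genes were compared per length, as CPM per kilobase of the longest protein-coding transcript, and given as mean ± SD (n = 4). Fabp4 was by far the most abundant member, at 1806 ± 302 CPM per kilobase in WT and 1705 ± 214 in KO. Egfl7 followed at 179.8 ± 16.4 in WT and 171 ± 23.1 in KO, and Cdh5 at 84.5 ± 16.3 in WT and 93.4 ± 16.3 in KO. The middle of the order was formed by Pecam1 (65.2 ± 5.73 in WT), Tie1 (55.5 ± 1.35) and Kdr (46.5 ± 7.98). Emcn (34.8 ± 2.29), Flt1 (31.2 ± 5.45) and Tek (17.8 ± 2.73) were lower, and Vwf was the lowest at 8.05 ± 1.24. Among neighbours in this order, the WT ranges of Cdh5 and Pecam1 overlapped, as did those of Emcn and Flt1, while the other neighbours did not overlap in WT. In KO the neighbours whose ranges overlapped were Pecam1 and Tie1 (49.1 to 71.9 and 50.6 to 62.3), Kdr and Flt1 (34.3 to 49.7 and 24.6 to 37.7) and Flt1 and Emcn (25.4 to 39.6 for Emcn), while Cdh5 (74.8 to 110.6) lay above Pecam1. Emcn and Flt1 also changed places in KO (31.6 ± 6.32 and 32.5 ± 5.65). The order depends on the length used: with all annotated exons merged, Cdh5 (80.3 ± 15.5) stood above Egfl7 (69.8 ± 6.36) in WT and Tie1 (47.8 ± 1.16) above Pecam1 (36.0 ± 3.17).

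The comparison of KO with WT asked whether the level of these transcripts differed in left ventricles labelled as Nbdy knockout. No marker gene passed the comparison of genotypes in edgeR's quasi-likelihood test with Benjamini-Hochberg adjustment over the 13336 genes tested: 0 of 10 passed an adjusted p of 0.05, and 0.0225% of all genes did. At an unadjusted p under 0.05 there were also 0 of 10 members, against 6.4% of all genes, and DESeq2 and limma-voom called 0 members as well. In no member did the groups fail to overlap, where 4.12% of all genes had groups that do not overlap. The median log2 fold change of the 10 members was -0.05, with 6 negative and 4 positive, and the median of all genes tested was -0.0032, with 50.6% negative. Because whole ventricle was sequenced, the number of endothelial cells and the RNA per cell cannot be told apart in any of these values.

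**Figure D1:**
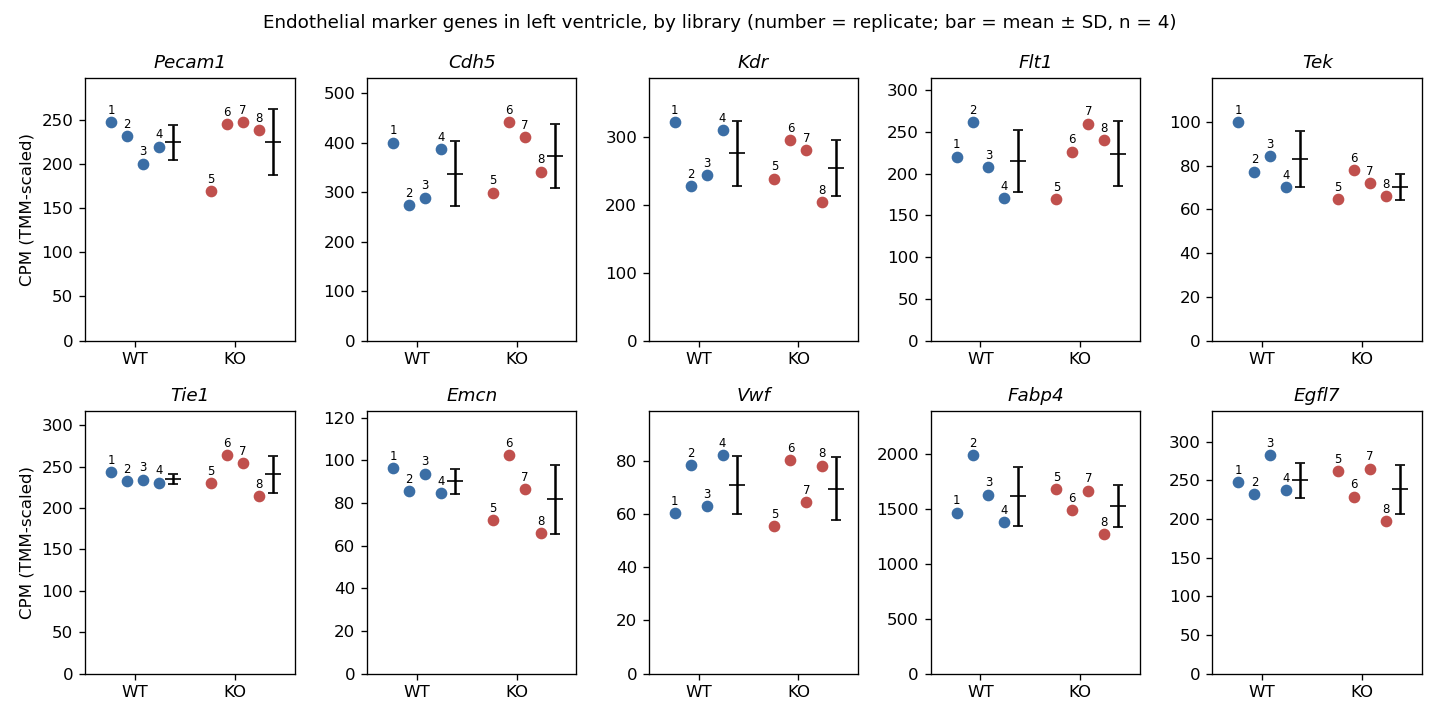
Level of each endothelial marker gene in CPM (vertical axis, from 0) in the 4 WT and 4 KO libraries; each point is 1 heart, numbered by replicate, and the black bar gives the mean ± SD (n = 4). The groups overlap in all 10 panels, and KO replicate 5 or KO replicate 8 is the lowest library in 9 of them.

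Among the adhesion and surface proteins, Pecam1 encodes the adhesion molecule CD31 at endothelial contacts and on platelets and leukocytes. Pecam1 (ENSMUSG00000020717) is protein-coding and lies on chromosome 11 from 106654217 to 106750628 on the minus strand in GRCm38. It was measured at 247.1, 231.1, 200.3 and 219.4 CPM in WT replicates 1 to 4 and at 169.0, 244.9, 247.2 and 237.8 CPM in KO replicates 5 to 8. KO replicate 5 lay below every other library, and the remaining KO libraries lay within the WT range or just above its top. The group means were nearly the same, at 224.5 ± 19.7 and 224.7 ± 37.4 CPM (log2 fold change 0.0014 ± 0.14 SE, adjusted p = 0.998 in edgeR).

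Cdh5 encodes VE-cadherin, the cadherin of endothelial adherens junctions. This gene (ENSMUSG00000031871) lies on chromosome 8 between 104101625 and 104144511, plus strand. The WT hearts held 399.8, 274.0, 288.8 and 387.3 CPM of it, and the KO hearts 298.7, 441.7, 411.6 and 341.2 CPM. Both groups held low and high hearts, and WT replicate 2 was the lowest library. Cdh5 had the most positive fitted value of the 10 (log2 fold change 0.15 ± 0.16, adjusted p = 0.890 in edgeR), smaller than the spread within either group. Its 95% confidence interval ran from a KO level of 0.867 to 1.41 times that in WT.

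Emcn encodes endomucin, a sialomucin of capillary and venous endothelium. It lies on chromosome 3 from 137341067 to 137432185 on the plus strand (ENSMUSG00000054690). WT hearts held 96.5, 85.5, 93.9 and 84.7 CPM, and KO hearts held 72.0, 102.5, 86.4 and 65.8 CPM. The WT values were tight, whereas KO replicates 5 and 8 lay below all WT hearts and KO replicate 6 above them. The fitted difference was -0.14 ± 0.14 on the log2 scale (adjusted p = 0.874 in edgeR).

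The VEGF receptors showed unlike patterns over the hearts. Kdr encodes VEGFR2, the main signalling receptor, and Flt1 encodes VEGFR1, which binds VEGF tightly and is also made in a soluble form that gene counts do not separate. Kdr (ENSMUSG00000062960, chromosome 5, 75932827 to 75978458, minus strand) was measured at 321.2, 226.7, 243.0 and 309.8 CPM in WT and at 238.1, 294.6, 280.3 and 203.4 CPM in KO. Flt1 (ENSMUSG00000029648, chromosome 5, 147561604 to 147726011, minus strand) was measured at 220.3, 261.7, 207.4 and 170.6 CPM in WT and at 169.4, 226.4, 260.0 and 240.5 CPM in KO. Kdr was highest in WT replicates 1 and 4, where Flt1 was intermediate and low, and it was lowest in KO replicate 8, where Flt1 was high. Neither passed between genotypes, with log2 fold changes of -0.11 ± 0.15 for Kdr (adjusted p = 0.912 in edgeR) and 0.06 ± 0.16 for Flt1 (adjusted p = 0.964 in edgeR).

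Within a library, the ratio of Flt1 to Kdr counts was 0.686, 1.15, 0.853 and 0.551 in WT and 0.711, 0.769, 0.928 and 1.18 in KO. The ratio thus varied about as much within each genotype (0.811 ± 0.26 and 0.897 ± 0.211, mean ± SD, n = 4 each). The groups overlapped between 0.711 and 1.15, with WT replicates 1 and 4 below every KO heart. Over the 8 libraries the log2 levels of Kdr and Flt1 had a Pearson r of -0.24 (exact permutation p = 0.553) and a Spearman rho of -0.33 (exact permutation p = 0.428), and r was -0.18 without the libraries farthest from the median of Kdr.

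Among the Tie receptors, Tek encodes the angiopoietin receptor Tie2 and Tie1 its partner, long described as an orphan receptor. Tek (ENSMUSG00000006386, chromosome 4, 94739289 to 94874976, plus strand) was measured at 99.96, 77.3, 84.3 and 70.3 CPM in WT and at 64.7, 77.8, 72.1 and 66.0 CPM in KO. The KO hearts lay in the lower part of the WT range or below it, with KO replicates 5 and 8 under every WT heart and the groups overlapping between 70.3 and 77.8 CPM. Tek had the most negative fitted value and the smallest p of the 10 members, a KO level of 0.846 times that in WT with a 95% confidence interval from 0.702 to 1.02 (log2 fold change -0.24 ± 0.12, adjusted p = 0.777 in edgeR). Without WT replicate 1, the heart with the most Tek, the log2 fold change was -0.14.

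Tie1 (ENSMUSG00000033191, chromosome 4, 118471191 to 118490061, minus strand) varied least of the 10 members within WT and over all 8 libraries, and Tek varied least within KO. It stood at 243.4, 232.3, 234.4 and 230.6 CPM in WT and at 230.1, 264.0, 254.2 and 214.0 CPM in KO. The WT hearts differed by a coefficient of variation of 2.44%, and the KO hearts by 9.44%, on both sides of the WT values. The log2 fold change was 0.03 ± 0.11 (adjusted p = 0.970 in edgeR), the narrowest error of the 10. The ratio of Tek to Tie1 counts was 0.411, 0.333, 0.360 and 0.305 in WT and 0.281, 0.295, 0.284 and 0.308 in KO, so that the groups touched only through WT replicate 4 and KO replicate 8. This ratio was looked at after the values of the genes were known, and its difference was not tested.

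The secreted products were Vwf and Egfl7. Vwf encodes von Willebrand factor, the clotting protein stored in endothelium and in platelets, and lies on chromosome 6 from 125546774 to 125686679 on the plus strand (ENSMUSG00000001930). Vwf stood at 60.5, 78.6, 63.1 and 82.3 CPM in the WT hearts and at 55.6, 80.4, 64.6 and 78.3 CPM in the KO hearts. Each genotype thus had a pair of low and a pair of high hearts, at about the same levels (log2 fold change -0.03 ± 0.15, adjusted p = 0.978 in edgeR). Platelets and megakaryocytes share Vwf with endothelium. The summed level of 8 platelet and megakaryocyte genes was 20.9 to 33.3 CPM in WT and 22.4 to 32.4 CPM in KO. Most of this sum was Pf4 (20.7 ± 4.83 CPM in WT and 20.1 ± 3.96 CPM in KO). Itga2b, the platelet integrin, stood at 2.92 ± 0.222 and 3.98 ± 0.712 CPM (log2 fold change 0.45 ± 0.22) and the chemokine Ppbp at 1.48 ± 0.586 and 2.08 ± 0.669 CPM (0.50 ± 0.35), and neither passed. The other 5 genes, Gp9, Gp1bb, Gp1ba, Treml1 and Gp6, had too few counts to be tested, and the part of platelets in the Vwf level was not tested.

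Egfl7 encodes a secreted factor of the endothelial matrix and hosts the endothelial microRNA miR-126. On chromosome 2 it covers 26580014 to 26593120 of the plus strand (ENSMUSG00000026921). Its WT libraries held 247.5, 232.2, 282.9 and 237.7 CPM, and its KO libraries 262.5, 229.2, 265.2 and 197.1 CPM. KO replicate 8 was the lowest library and WT replicate 3 the highest, with all others between 229.2 and 265.2 CPM. The fitted log2 fold change was -0.07 ± 0.13 (adjusted p = 0.940 in edgeR). Exons of Agpat2 overlap Egfl7 on the opposite strand, and those of the protein-coding gene Gm20532 overlap it on the same strand. Gm20532 held 0 counts over all libraries, and how reads shared with it were counted is not given. Agpat2 held 4019 counts over all libraries, 914 of them in KO replicate 5, and whether the counting used strand is not given in the sources used here.

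Fabp4 encodes a cytosolic fatty acid carrier of capillary endothelium that adipocytes and macrophages also make. It is found on chromosome 3 from 10204088 to 10208576 on the minus strand (ENSMUSG00000062515). The gene was measured at 1467, 1992, 1631 and 1381 CPM in WT and at 1683, 1487, 1667 and 1273 CPM in KO. WT replicate 2 was the highest and KO replicate 8 the lowest library, and the other 6 hearts were mixed (log2 fold change -0.08 ± 0.15, adjusted p = 0.935 in edgeR). Without WT replicate 2 the log2 fold change was 0.03. That heart also had the largest summed level of 8 adipocyte genes, 349.2 CPM against 186.2 to 307.1 CPM in the others. Nearly all of it was Plin4. The next largest sum, 307.1 CPM, of which Plin4 was 303.9 CPM, was that of KO replicate 8, the lowest library for Fabp4. Adipoq, the hormone that defines adipocytes, stood at 1.84 CPM in WT replicate 2 and at 0.082 to 0.525 CPM in the other hearts. Cfd, Cidec, Plin1, Retn and Pck1 were also highest in WT replicate 2. Cfd stood at 12.9 CPM there and at 0.426 to 2.09 CPM in the other hearts. Lep was at 0 counts in all 8. Macrophage genes summed to 330.0 to 512.9 CPM in WT and 344.2 to 506.0 CPM in KO. The part of these cells in the Fabp4 level was not tested.

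The confidence intervals give the changes that these libraries leave room for, for each gene alone and in the fit reported. Over the 10 members the lower ends of the 95% intervals ran from 0.702 times the WT level for Tek to 0.872 for Tie1, and the upper ends from 1.02 for Tek to 1.41 for Cdh5. In this fit a fall in KO below 0.702 of WT, or a rise above 1.41-fold, lay outside the interval of every member. Each interval covers its own gene and not the 10 jointly, and refits moved the values. The log2 fold change of Tek was -0.32 ± 0.12 without WT replicate 4, and that of Cdh5 was 0.24 ± 0.17 without KO replicate 5. Larger changes are thus not excluded.

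**Figure D2:**
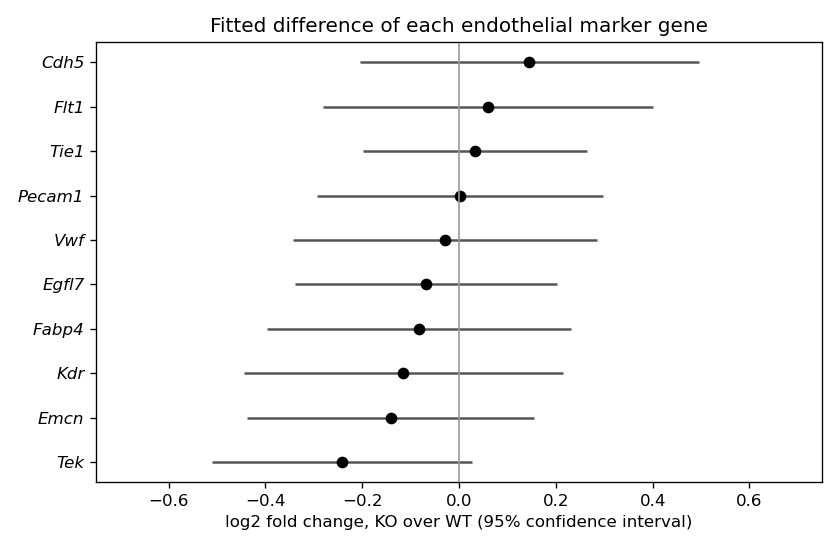
Fitted log2 fold change of KO over WT (horizontal axis) of each marker gene (rows), with its 95% confidence interval from the edgeR fit of 4 WT and 4 KO libraries. All 10 intervals contain 0; Tek is the most negative at -0.24 and Cdh5 the most positive at 0.15.

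For each of the 10 members the range within WT and the range within KO both exceeded the difference of the group means. In the case of Tek these were 29.7 CPM within WT and 13.1 CPM within KO, against a KO mean minus WT mean of -12.8 CPM. The highest library exceeded the lowest by 1.23-fold for Tie1 and by 1.44-fold to 1.61-fold for the other 9 members. KO replicate 8 was the lowest of all 8 libraries for Kdr, Tie1, Emcn, Fabp4 and Egfl7, and KO replicate 5 for Pecam1, Flt1, Tek and Vwf, while Cdh5 was lowest in WT replicate 2. The low values in KO replicate 8 did not extend to Pecam1, Flt1 or Vwf, which were above their own means there. Those in KO replicate 5 did not extend to Fabp4 or Egfl7, and Tie1 was near its own mean in that library. Beside this, KO replicate 5 had the largest total count, the highest summed level of erythroid genes (2149 CPM, against 815.1 to 1785 CPM in the other libraries) and the lowest sum of immediate early genes, and KO replicate 8 had the highest sum of cardiomyocyte genes (88669 CPM). The part of these measures in the levels was not tested. The median SD of log2 CPM among the members was 0.22 in WT and 0.25 in KO, against 0.20 and 0.13 over the 1921 genes at least as abundant as the lowest member.

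**Figure D3:**
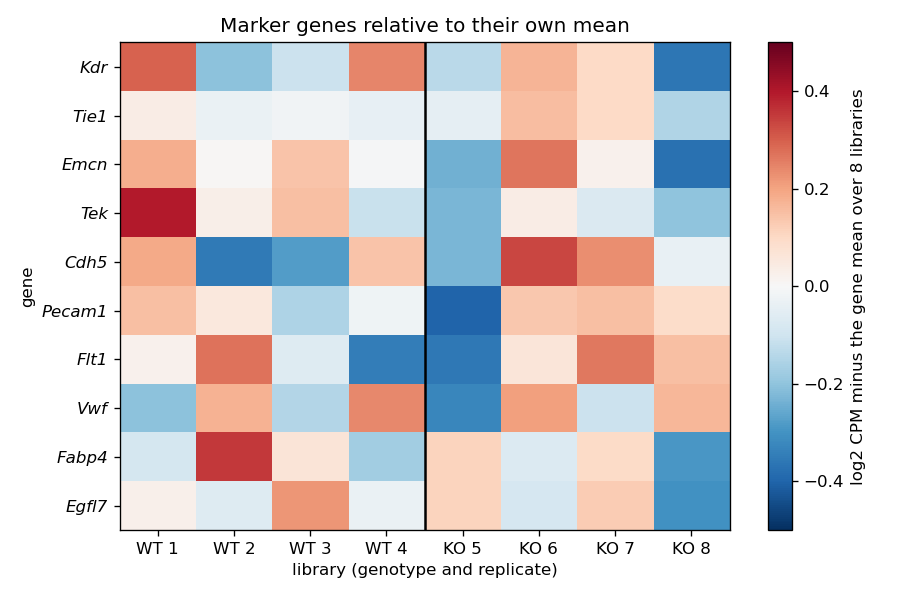
Log2 CPM of each marker gene (rows) in each library (columns; WT left and KO right of the black line) minus the mean of that gene over the 8 libraries; red is above and blue below the mean. KO replicate 8 is blue for Kdr, Tie1, Emcn, Tek, Fabp4 and Egfl7 but red for Pecam1, Flt1 and Vwf, with Cdh5 near its mean. KO replicate 5 is red for Fabp4 and Egfl7 and blue for the others, with Tie1 near its mean.

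The measured levels of the members did not all rise and fall together over these 8 libraries. Of their 45 pairs, 33 had a Pearson r above 0 over the 8 libraries, with a median of 0.25. The strongest pair was Tie1 and Emcn (r = 0.81, exact permutation p = 0.0186; rho = 0.93, exact permutation p = 0.0022), and without KO replicates 6 and 8, the libraries farthest from the median of Tie1, r fell to 0.41. Tek and Emcn followed (r = 0.76, exact permutation p = 0.0289; rho = 0.88, exact permutation p = 0.0072; r = 0.80 without KO replicate 5 and WT replicate 1). The lowest r was that of Vwf and Egfl7, both secreted (r = -0.70, exact permutation p = 0.046, and rho = -0.60, exact permutation p = 0.132). Without KO replicate 5 and WT replicate 1 their r was -0.78. No pair passed after adjustment over the 45 pairs (adjusted p = 0.371 for each of these r values, and 0.1004, 0.163 and 0.541 for the rho values). All levels share the scaling and cell composition of their library, and with 4 hearts per genotype no correlation was computed within a genotype.

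Against the mean of the other 9 members, Emcn (r = 0.81, rho = 0.79) and Tie1 (r = 0.79, rho = 0.88) were closest over the 8 libraries. Vwf (r = -0.0030), Egfl7 (r = 0.0053) and Fabp4 (r = -0.06) showed no such likeness. Among 10284 other genes averaging at least 5 CPM, the highest r with the mean of the 10 members belonged to Car8 (r = 0.97, rho = 0.90), a protein related to carbonic anhydrases, Myo1e (0.95, rho = 0.90), an unconventional myosin, Mgll (0.94, rho = 0.90), a lipase of monoacylglycerols, Rtp4 (0.94, rho = 0.95), an interferon-induced gene, and Sf3b3 (0.93, rho = 0.93), a splicing factor. These 5 are the extremes of a search over many genes and 8 libraries, so no p is given. The member mean, relative to its mean over the libraries, was -0.17 in KO replicate 5 and -0.13 in KO replicate 8. It lay between -0.02 and 0.12 in the other libraries. All 5 genes were also lowest in KO replicates 5 and 8. The r values with the member mean, here and below, were not recomputed without these libraries.

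Endothelial genes from the lists around the members had a median r of 0.35 with the member mean, and 33 of 100 had an r above 0.5, where 9.92% of all other genes tested did. Smooth muscle and pericyte genes were about as alike, with a median r of 0.34 and 3 of 10 above 0.5, so the likeness was not shown to be particular to endothelial genes. Erg (r = 0.90) and Ets1 (r = 0.84), transcription factors of the ETS family expressed in endothelium, had the highest r of these 100 genes and were named after their values were seen. Erg stood at 51.9, 49.6, 45.7 and 45.5 CPM in WT and 42.3, 51.1, 54.6 and 45.6 CPM in KO, lowest in KO replicate 5 and highest in KO replicate 7. Its log2 fold change between genotypes was 0.0073 ± 0.11 (adjusted p = 0.991 in edgeR). Hey1, a target of Notch signalling, had the lowest r of the 100 (-0.71). Of the remaining lists, fibroblast genes had a median r of 0.23, macrophage genes of -0.03, cardiomyocyte genes of -0.43 and erythroid genes of -0.56.

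The pathways around the members were described with 9 further lists, which together hold 103 endothelial genes, 100 of which had enough counts to be tested. None of these 100 passed in edgeR, DESeq2 or limma-voom. In edgeR 4 of the 100 had an unadjusted p under 0.05, against 6.4% of all genes. The groups did not overlap for 2 of the 100, against 4.12% of all genes. The median log2 fold change of the 100 was -0.02, and 57 were negative, against 50.6% of all genes.

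Among 12 VEGF and angiopoietin ligands, co-receptors and partners, 0 passed (median -0.01). The smallest p belonged to Nrp1, a VEGF co-receptor, at 401.2 ± 36.7 CPM in the WT hearts and 333.2 ± 51.4 CPM in the KO hearts (log2 fold change -0.27 ± 0.13, adjusted p = 0.777 in edgeR). Flt4, the VEGF receptor of lymphatic vessels, stood at 0.24 ± 0.12. Of the VEGF ligands, Vegfa stood at 698.7 ± 130.0 CPM in WT hearts and 711.5 ± 79.2 CPM in KO hearts (log2 fold change 0.03 ± 0.15). The log2 fold change was 0.16 ± 0.12 for Vegfb, -0.41 ± 0.21 for Vegfc, -0.34 ± 0.23 for Vegfd and -0.02 ± 0.25 for Pgf. It was -0.03 ± 0.14 for Angpt1, the main activator of Tek, and 0.27 ± 0.23 for Angpt2, its context-dependent antagonist, and none of these 7 ligands passed.

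Of the 10 Notch genes 0 passed (median 0.06). Jag2, a Notch ligand, was measured at 52.3, 59.9, 71.7 and 54.1 CPM in WT and at 74.3, 71.2, 78.1 and 71.0 CPM in KO, so that all KO hearts lay above 3 of the 4 WT hearts (log2 fold change 0.31 ± 0.12, adjusted p = 0.734 in edgeR). Dll1, another ligand, lay below every WT heart in all KO hearts, at 11.6 ± 0.896 CPM in WT and 9.62 ± 0.772 CPM in KO (-0.27 ± 0.13 on the log2 scale, adjusted p = 0.777 in edgeR).

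The 15 genes of BMP, sphingosine phosphate, nitric oxide and adrenomedullin signalling had a median of -0.0031 and 0 passed. Apln, the peptide apelin, stood at -0.41 ± 0.22 and Robo4, a guidance receptor of endothelium, at 0.19 ± 0.11 on the log2 scale. Of 18 endothelial transcription factors 0 passed (median -0.0044). Sox18, a factor of vessel development, averaged 99.3 ± 10.2 CPM in WT hearts and 125.5 ± 23.2 CPM in KO hearts (log2 fold change 0.34 ± 0.14, adjusted p = 0.759 in edgeR), and Tcf15, which drives fatty acid transport genes in heart endothelium, stood at -0.20 ± 0.12.

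Of 13 tested junction and adhesion genes 0 passed (median -0.08), with the adhesion molecule Icam2 at -0.19 ± 0.11 and the surface lectin Clec14a at -0.22 ± 0.16. Among 15 genes of capillary lipid handling, caveolae and transport, the group whose functions Fabp4 shares, 0 passed and the median was 0.0082. Tspan13, a tetraspanin, held 130.6, 134.9, 129.6 and 139.0 CPM in the WT hearts and 99.7, 120.7, 121.7 and 113.2 CPM in the KO hearts, below all WT hearts in all KO hearts (log2 fold change -0.23 ± 0.10, adjusted p = 0.772 in edgeR). Aqp1, the water channel of capillaries, stood at 0.24 ± 0.17.

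Genes of particular vessel types gave no call either. The 7 arterial genes had a median of -0.08, with the kinase gene Bmx at -0.35 ± 0.22 and the gap junction gene Gja5 at 0.15 ± 0.15. The 7 tested venous and endocardial genes had a median of -0.14. Among them Cytl1, a small secreted protein, averaged 17.2 ± 6.17 CPM in WT hearts against 11.3 ± 3.19 CPM in KO hearts (log2 fold change -0.60 ± 0.26, adjusted p = 0.772 in edgeR), with overlapping groups, and Tmem108 stood at -0.26 ± 0.25. The 6 tested lymphatic genes had a median of -0.02, and after Flt4 the smallest p was that of the matrix glycoprotein Reln (0.21 ± 0.26).

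**Figure D4:**
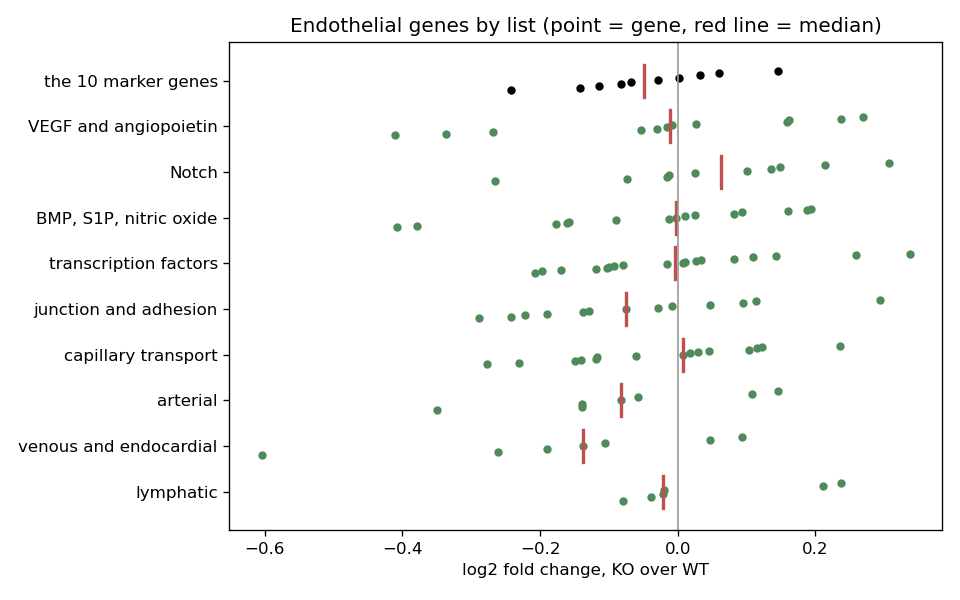
Log2 fold change of KO over WT (horizontal axis) of the 10 marker genes and of each tested gene in 9 endothelial lists (rows); each point is 1 gene and the red line is the median of the list. The medians lie between -0.14 (venous and endocardial) and 0.06 (Notch), and no gene plotted passed the threshold.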

How the data were processed

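Libraries were made from poly(A) RNA with a stranded kit (TruSeq), per the labels' protocols. Alignment used STAR 2.7.1a with the GRCm38 (mm10) build, per the submitters' processing notes. No counting tool, annotation release or strand setting is stated there, so reads of overlapping genes may be shared. The authors deposited raw whole-number counts per Ensembl gene, not normalized, with 1 column per heart, matched to samples by column name. Each pair of libraries differed beyond sampling noise, with a chi-square of 11.4 to 59.4 per degree of freedom. Symbols, positions and lengths came from GENCODE M21, which matched 36429 of 38293 identifiers; the others held at most 0.187% of a library and were tested as well.

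The test was the quasi-likelihood test of edgeR 4.0.16 in R 4.3.3, two-sided with genotype as the only term, after TMM scaling and a filter on low counts (filterByExpr with 10 as its minimum), with Benjamini-Hochberg adjustment over 13336 genes and a threshold of 0.05. SE is the log2 fold change divided by the square root of F, and 95% intervals use its degrees of freedom. CPM values use TMM-scaled sizes; log2 CPM uses a prior count of 0.5. The fit was tested on simulated data. Alternatives used DESeq2 1.42.0, limma 3.58.1 (voom), other scalings and filters, removal of mitochondrial genes or of a GC content and length trend (splines, 4 degrees of freedom), and each library left out; a fit without WT replicates 1 and 2, and transcript lengths in place of merged exons, were added after the data were seen.

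The members and lists were chosen with earlier results of these data known. Named are the members, Nbdy, passing list genes or else those with the smallest p (2 per endothelial list, 1 per list of other cells), and the 5 genes most like the members; others were named after their values were seen. Ccl21a, whose symbol fits more than 1 identifier, was left out.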

Additional observations from a re-analysis of the deposited data

Results flagged for a closer look

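Pecam1 in KO replicate 5, at 169.0 CPM, stood apart from the other 3 KO libraries, which lay between 237.8 and 247.2 CPM: the gap to its nearest neighbour was 0.879 of the range of the group, above Dixon's 95% critical value for 4 samples. Of 20 groups checked (10 genes in each genotype) 1 stood out in this way, and chance gives about 1 in 20. Without that library the log2 fold change of Pecam1 was 0.12, and it did not pass.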

How the results depend on the processing

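No marker gene and no gene of the 9 endothelial lists passed under any of the 18 alternatives, and the smallest adjusted p of a member in any fit was 0.630. Of 170 refitted member values, 148 kept their direction and 22 turned, those of Pecam1, Tie1, Flt1, Fabp4, Vwf and Egfl7. Pecam1 turned to -0.041 with library totals, -0.011 with limma-voom and -0.046 once a trend with GC content and length was taken out; Tie1 turned to -0.013 with library totals and -0.0999 without that trend, where Flt1 was -0.029 and Fabp4 0.0029. Vwf, also near 0, stood at -0.22 there, and Kdr and Egfl7 at -0.17. The median of the members was -0.097 with library totals and -0.080 without that trend, with 2 of 10 positive in each. The median of all genes tested was -0.051 and -0.015 in those 2 fits. Without both WT replicates 1 and 2, Fabp4 was 0.020 and Flt1 0.25. With 1 library left out, the ranges were -0.053 to 0.12 for Pecam1, -0.041 to 0.17 for Flt1, -0.018 to 0.085 for Tie1, -0.11 to 0.066 for Vwf, -0.16 to 0.033 for Fabp4 and -0.12 to 0.013 for Egfl7; Cdh5 (0.05 to 0.24), Kdr (-0.20 to -0.02), Tek (-0.32 to -0.14) and Emcn (-0.27 to -0.05) kept their sign, and the median of the members ran from -0.09 to 0.02. The count of all genes called was 3, with 13 by DESeq2, 10 without a filter, 6 without WT replicates 1 and 2, and 2 to 6 with 1 library left out; the cause was not tested. No paired analysis was possible because the replicate numbers 1 to 4 in WT and 5 to 8 in KO are not shared. Differences of the marker genes inside the intervals given were not resolved.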

Other observations

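In the lists of other cell types that a ventricle holds, no gene passed in edgeR, and the values with the smallest p in each list were as follows. Fibroblast genes had a median log2 fold change of -0.14 with 9 of 10 negative, against 50.6% of all genes. The collagen gene Col3a1 stood at -0.30 ± 0.14 (adjusted p = 0.772 in edgeR). The groups did not overlap for 1 of these 10 genes, Dcn (-0.27 ± 0.13), against 4.12% of all genes. Smooth muscle and pericyte genes had a median of -0.08, with the pericyte and smooth muscle receptor Notch3 at 0.23 ± 0.14. Macrophage genes had a median of -0.0091. Mrc1, the mannose receptor of resident macrophages, stood at 37.8 ± 7.49 CPM in WT and 28.3 ± 1.83 CPM in KO (-0.42 ± 0.14, adjusted p = 0.711 in edgeR). It was below all WT hearts in all KO hearts, as 1 of 10 macrophage genes without overlap, against 4.12% of all genes. Cardiomyocyte genes had a median of -0.03, with the myosin light chain Myl2 at 0.14 ± 0.12. Erythroid genes had a median of 0.31 over 5 tested genes, with the heme synthesis gene Alas2 at 0.49 ± 0.19. Of the platelet genes 3 were tested (median 0.45), with the integrin Itga2b at 0.45 ± 0.22. Of the adipocyte genes 2 were tested and had opposite signs, so that their median of -0.90 describes neither. Cfd stood at -1.92 ± 0.79, with its highest level in WT replicate 2 (12.9 CPM), and Plin4 at 0.12 ± 0.16. The 12 immediate early genes had a median of -0.32, with Atf3 at -2.32 ± 0.91 and overlapping groups.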
